A study of Mus musculus with 8 samples.

Results

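Cytochrome P450 genes were measured in gallbladders of leptin-deficient mice after leptin or saline. The members were all probe sets whose single annotated mouse gene symbol has the form Cyp, digits, a letter and digits, such as Cyp2e1. The bile acid enzymes Cyp7a1, Cyp7b1, Cyp8b1 and Cyp27a1 (8 probe sets) and 3 pseudogene probe sets were left out. This gave 84 of the 45101 probe sets on the array, for 66 genes of 18193. Probe sets shared by several P450 genes, such as that of Cyp2a4 and Cyp2a5, have no single symbol and were not used.

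All mice were females of the strain B6.V-Lep ob, homozygous for the ob mutation of the leptin gene, so the saline controls also lack functional leptin. They arrived at 7 weeks of age and then had daily injections into the peritoneum over 4 weeks, of recombinant murine leptin (5 µg for each g of weight) or of saline. At 12 weeks, after fasting overnight, 3 gallbladders went into each RNA pool, with 4 saline pools (1 to 4) and 4 leptin pools (5 to 8), each on 1 Affymetrix array. Every value is an array signal in arbitrary units, and a spread is one between pools, not between animals. Differences are log2 fold changes, leptin minus saline, with n = 4 pools a treatment and p-values adjusted over all tested probe sets.

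P450 enzymes carry a heme group and use it to insert oxygen into their substrates. Those of the endoplasmic reticulum take electrons from P450 reductase and cytochrome b5, those of mitochondria from ferredoxin. Members of families 1 to 3 clear drugs and other foreign compounds, family 4 hydroxylates fatty acids and leukotrienes, and others act on steroids, vitamin D or retinoic acid. The liver holds most of them, and receptors that bind small molecules set the levels of many: AHR for Cyp1, NR1I3 for Cyp2b, NR1I2 for Cyp3a and PPARA for Cyp4a genes.

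Of the P450 genes, Cyp1a2 rose with leptin to 2.88-fold its saline level, while Cyp2d9 fell to a level 2.29-fold lower and Cyp2b10 to one 1.98-fold lower (limma, adjusted p = 0.00945, 0.0088 and 0.0364). Cyp4f18 was measurable above background with leptin alone. The first 3 were 3 of the 47 genes bright enough to be tested, or 6.38%, against 8.27% of all 11719 tested genes (4.29% higher and 3.98% lower). That share was close to the background, so it is no result about the family. The family's median log2 fold change was -0.04, beside 0.02 over all tested genes, and 22 genes had a positive and 25 a negative value. With arrays centred on their median, 7 P450 genes were called lower in place of 2 (6.89% of all tested genes there), and the calls over all probe sets split into 619 higher and 1322 lower in place of 798 and 763.

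The promoters of these 4 genes are shown because the results turn on them. Each is the 250 bases before the RefSeq start site, 5′ to 3′ on the gene's strand, in build GRCm38.p6. Capitals mark TATAAA, the core of a TATA box, and GCGTG, the core letters bound by the aryl hydrocarbon receptor, on either strand. The stretches are chr9:57683656-57683905 on the minus strand for Cyp1a2, chr15:82452127-82452376 on the plus strand for Cyp2d9, chr7:25897408-25897657 on the plus strand for Cyp2b10 and chr8:72009627-72009876 on the minus strand for Cyp4f18.
Cyp1a2: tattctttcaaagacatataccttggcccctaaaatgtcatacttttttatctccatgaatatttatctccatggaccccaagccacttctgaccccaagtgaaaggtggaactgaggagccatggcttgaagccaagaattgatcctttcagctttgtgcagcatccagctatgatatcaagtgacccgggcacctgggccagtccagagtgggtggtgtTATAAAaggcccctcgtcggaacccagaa
Cyp2d9: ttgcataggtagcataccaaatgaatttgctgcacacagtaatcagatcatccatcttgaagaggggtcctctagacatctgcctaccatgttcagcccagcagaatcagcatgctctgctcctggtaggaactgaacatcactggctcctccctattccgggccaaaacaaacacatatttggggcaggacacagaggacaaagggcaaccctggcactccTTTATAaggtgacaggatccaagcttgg
Cyp2b10: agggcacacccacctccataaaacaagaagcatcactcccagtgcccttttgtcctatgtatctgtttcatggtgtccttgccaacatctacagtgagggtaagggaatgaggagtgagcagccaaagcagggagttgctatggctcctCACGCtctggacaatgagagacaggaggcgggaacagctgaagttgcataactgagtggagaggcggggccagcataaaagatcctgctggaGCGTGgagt
Cyp4f18: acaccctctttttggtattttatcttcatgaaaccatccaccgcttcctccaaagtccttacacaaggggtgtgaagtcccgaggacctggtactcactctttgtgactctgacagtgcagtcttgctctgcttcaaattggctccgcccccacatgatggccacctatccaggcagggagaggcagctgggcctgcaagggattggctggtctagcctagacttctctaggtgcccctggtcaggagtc

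TATAAA stood 29 bases before the start of Cyp1a2 and, read on the other strand, 28 bases before that of Cyp2d9. GCGTG was found in Cyp2b10, at 9 and 101 bases, and not in the other 3 windows. The table used held 56 promoter windows for 49 of the 66 genes. TATAAA was in 32.1% of these 56 windows and in 12.4% of all 32851 windows. GCGTG was in 23.2% against 28.2%, TTCNNNGAA, the letters of a STAT site, in 5.36% against 7.02%, and GTTAAT, part of an HNF1 site, in 5.36% against 6.43%. A match is only a match of letters.

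Liver-type transcripts were abundant in every gallbladder pool. Across the arrays, the median signal was 81.8 ± 4.18 (SD, n = 4) with saline and 98.9 ± 5.74 with leptin. All 13 hepatocyte markers on the array (of 15 listed) were above background in all 8 pools. Albumin (Alb) had signals of 14896 to 21696 in saline and 18355 to 19377 in leptin pools. The signals of the 13 markers summed to 103055 to 162232 in saline pools and 120266 to 144256 in leptin pools, and 0 of the 13 passed the test. Their mean log2 deviation, here the hepatocyte score, was -0.0042 ± 0.304 (SD, n = 4) with saline and 0.0042 ± 0.188 with leptin (two-sided exact permutation p = 1 over 70 assignments of the pools, of which the smallest possible is 0.0286). The score was lowest in saline 1 (-0.416) and leptin 7 (-0.277). In bulk RNA, fewer cells of a type and less RNA per cell cannot be told apart.

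Most P450 genes followed these pools. The saline 1 pool was the lowest saline pool in 33 of the 47 tested P450 genes, leptin 7 the lowest leptin pool in 32, and both held in 26. Both held in 8 of the 13 hepatocyte markers. Over all tested genes both held in 9.91%, against 55.3% of the P450 genes. Ethanol-oxidising Cyp2e1 had 10025 in saline 1 and 12519 to 14460 in the other saline pools, and 10652 in leptin 7 against 12889 to 14142. Cyp2d10 had 2925 in saline 1 and 4490 to 5764 in the others, and 2798 in leptin 7 against 4316 to 4684. Another saline pool was the lowest for Cyp1a1, Cyp1b1, Cyp20a1, Cyp26b1, Cyp2c65, Cyp2d22, Cyp2j5, Cyp2j9, Cyp2s1, Cyp4a12a, Cyp4b1, Cyp4f13, Cyp4f16 and Cyp4x1. Of these, Cyp2j5, Cyp2j9, Cyp2s1, Cyp4b1, Cyp4f13 and Cyp4f16 still had leptin 7 as their lowest leptin pool.

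**Figure D1:**
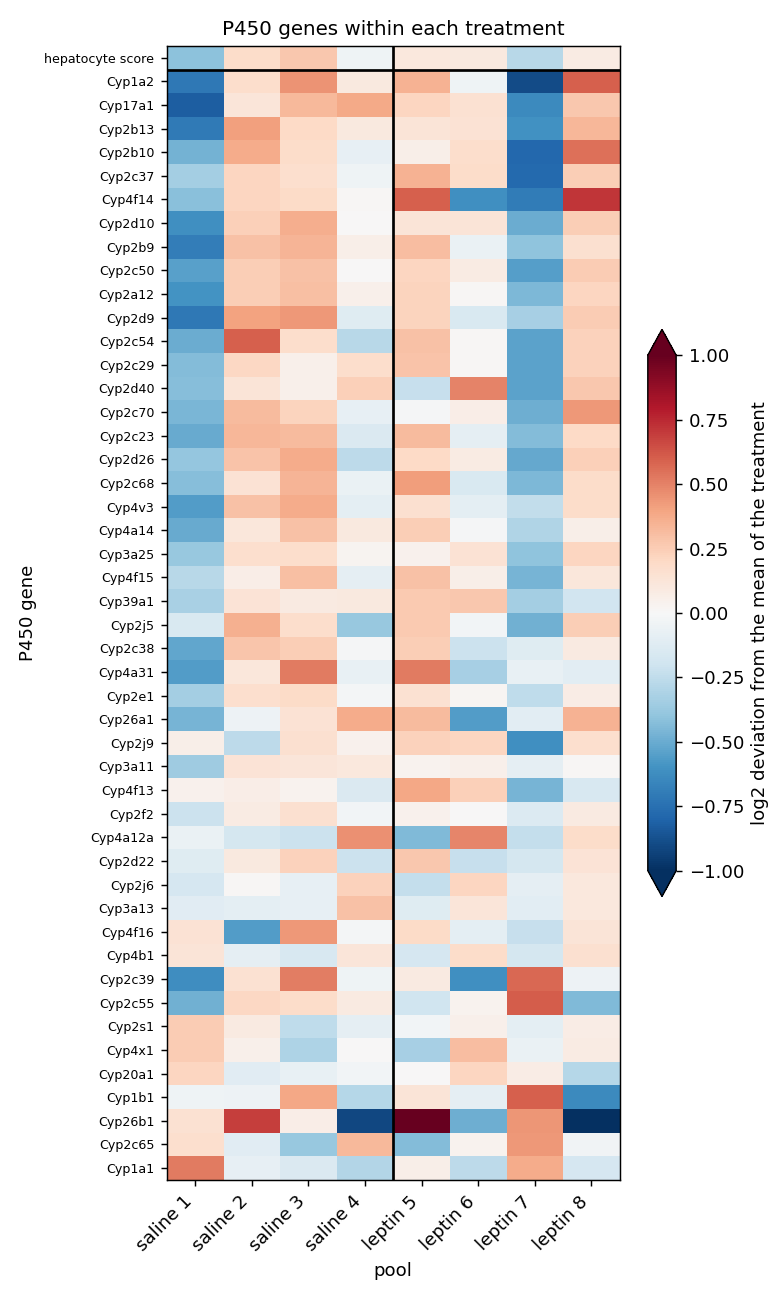
Log2 deviation of each tested P450 gene (rows) from the mean of its treatment, in each of the 4 saline and 4 leptin pools (columns), with the hepatocyte score in the top row. Blue marks below and red above the treatment mean; genes are ordered by their summed deviation in saline 1 and leptin 7, which were the lowest pools of their treatment in 26 of 47 genes.

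Each gene was also fitted with the score as a covariate, an alternative chosen after the data were seen. The median standard error of the P450 genes was 0.198 without the score and 0.131 with it, and it was smaller for 39 of 47 genes. Over all tested genes these medians were 0.171 and 0.163. With the score, 12 of the 47 P450 genes passed, 3 higher and 9 lower with leptin, or 25.5%, against 11.2% of all tested genes (5.34% higher and 5.89% lower). The 12 include the 3 called without it. The number of P450 genes called lower, 2 with all pools, was 6 without saline 1 and 4 without leptin 7, where 3.41% and 3.6% of all tested genes were lower. It was 1 without saline 2 and 1 without saline 4, where 2.04% and 2.21% were. Without both saline 1 and leptin 7 it was 8 (3.66%). P450 genes called higher numbered 2 without leptin 7 (3.93% of all tested genes) and 2 without both pools (4.02%).

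**Figure D2:**
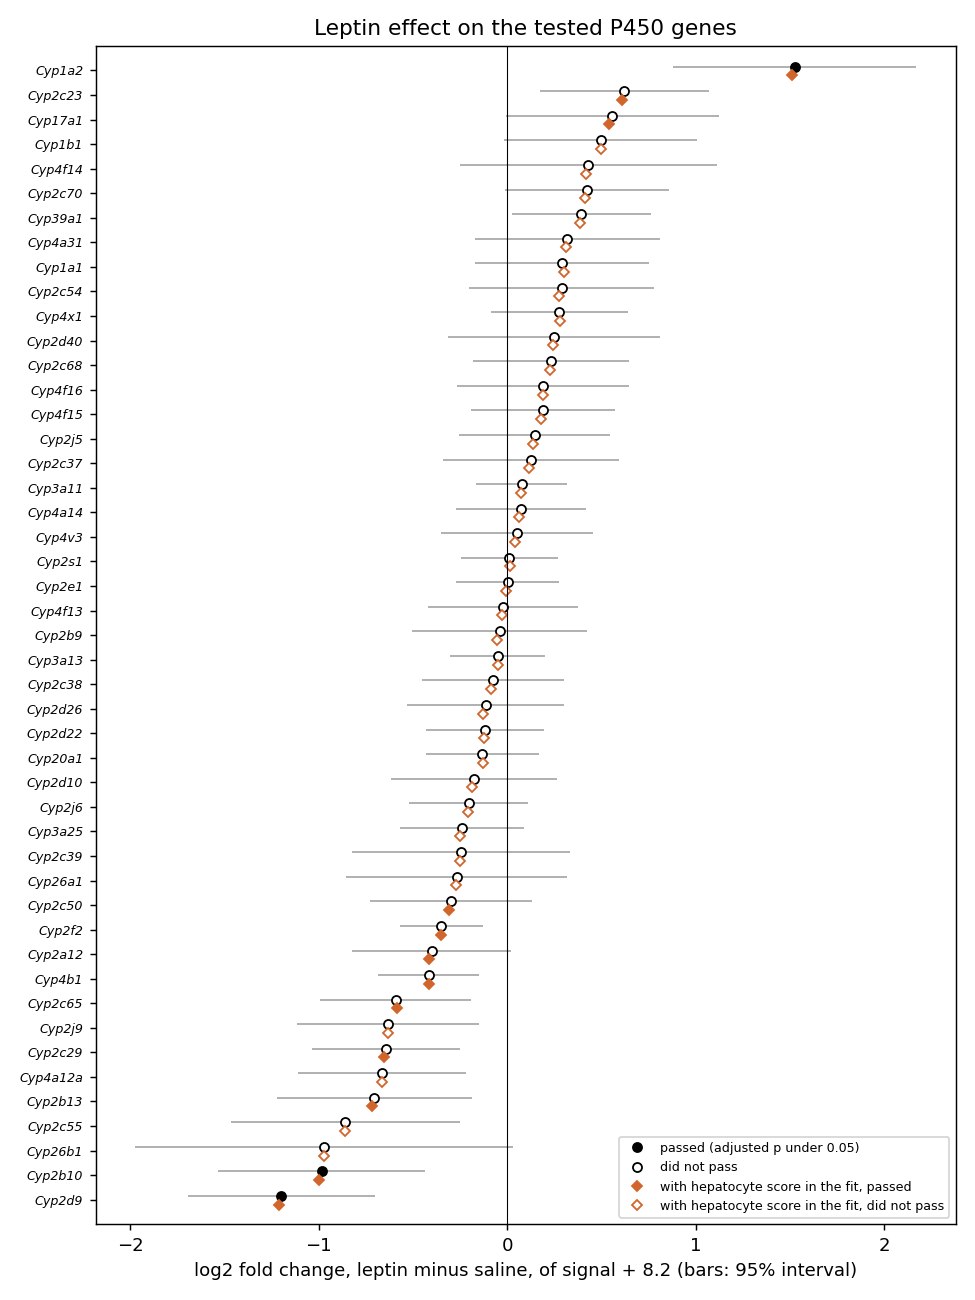
Log2 fold change, leptin minus saline, of the 47 tested P450 genes, with 95% intervals (circles), and the same estimate with the hepatocyte score in the fit (diamonds); filled symbols passed an adjusted p of 0.05. Cyp1a2, Cyp2d9 and Cyp2b10 passed in the fit without the score, and 12 genes passed with it.

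Among the Cyp1 genes, which the aryl hydrocarbon receptor induces, 1 of 3 was called. Cyp1a2, the liver enzyme that clears caffeine and arylamines, had signals of 282, 530.0, 643 and 501 in saline pools 1 to 4 and 1737, 1325, 729 and 2067 in leptin pools 5 to 8. Every leptin pool lay above every saline pool, though leptin 7 came close to saline 3. Its log2 fold change was 1.53 ± 0.298 (SE; 95% interval 0.88 to 2.17; limma adjusted p = 0.00945), and 1.51 with the hepatocyte score in the fit (adjusted p = 0.000143). The actin 3′ to 5′ signal ratio rises as RNA is degraded, so a low ratio marks less degraded RNA. It was lowest in saline 1 and leptin 7 of their treatments. Those pools were also the lowest for 26 of the 47 tested P450 genes, Cyp1a2 among them. The ratio was 1.498, 1.66, 1.68 and 1.55 in saline and 2.17, 1.84, 1.67 and 1.88 in leptin pools (two-sided exact permutation p = 0.0571 between treatments). With that ratio as a covariate the log2 fold change of Cyp1a2 was 0.67 (adjusted p = 0.28), so the call was lost. Other P450 genes also moved with this covariate. Cyp2c37 went from 0.127 to -0.548, Cyp2a12 from -0.401 to -0.952 and Cyp2c50 from -0.296 to -0.868. Cyp2e1 also moved to a lower value and Cyp3a13 to a slightly higher one. With the ratio, 8 P450 probe sets were called lower in place of 3. Over all probe sets, calls lower went from 763 to 405 and calls higher from 798 to 249.

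The other Cyp1 genes did not pass. Cyp1a1, the most inducible AHR target, had signals of 134 to 243 with saline and 170 to 268 with leptin, and its log2 fold change was 0.29 (95% interval -0.17 to 0.75; limma adjusted p = 0.44). Cyp1b1, which oxidises oestrogens in tissues outside the liver, had 190 to 308 and 211 to 509 (0.50, -0.016 to 1.01; adjusted p = 0.228). Of the AHR targets that are not P450s, 4 of 5 were on the array, 2 were tested and 0 passed: Nqo1 was at -0.39 and Tiparp at -0.20 (adjusted p = 0.369 and 0.409). The receptor repressor Ahrr was under background in all pools. Ahr itself, picked out after its values were seen, had 364 to 510 with saline and 523 to 677 with leptin, groups that did not overlap, at a log2 fold change of 0.50 (adjusted p = 0.0593).

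**Figure D3:**
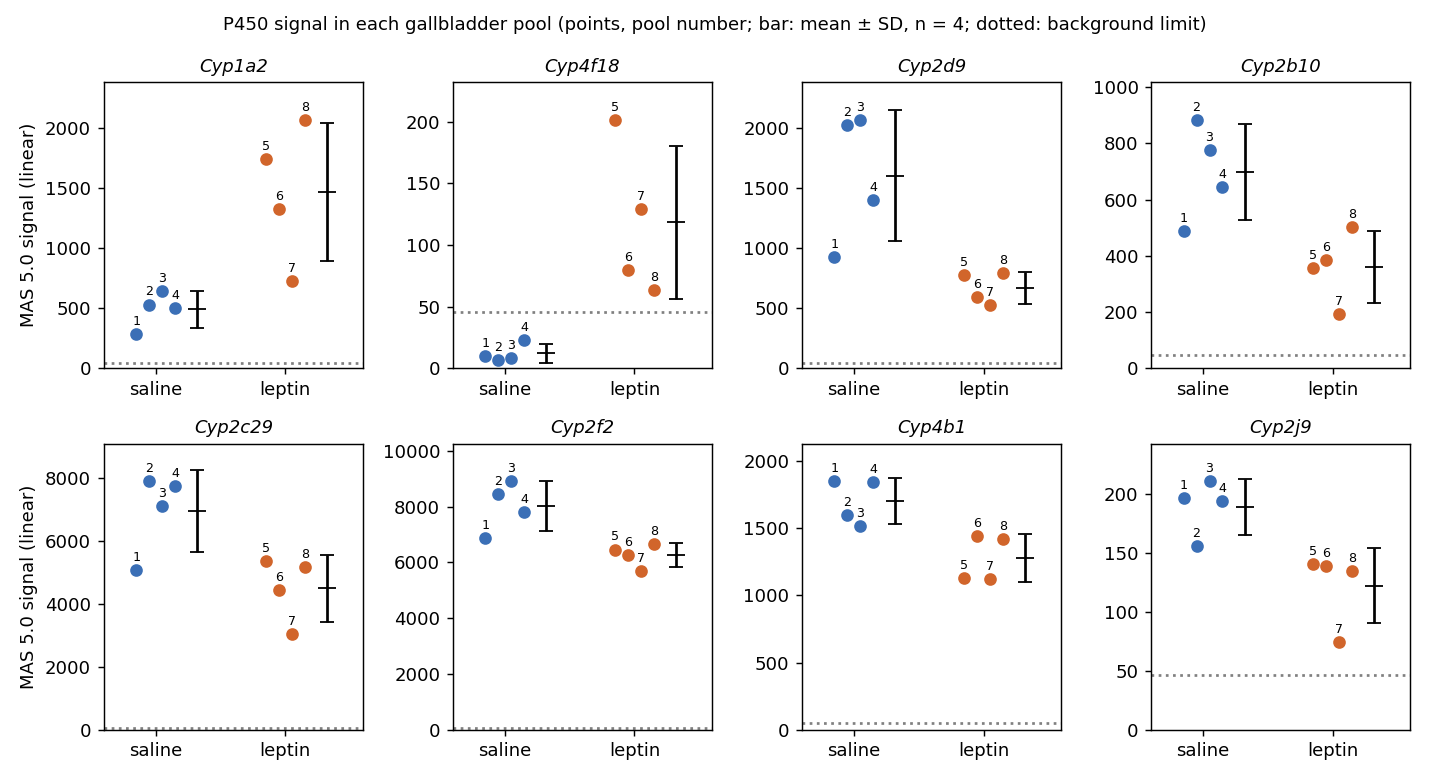
MAS 5.0 signal on a linear axis for 8 P450 genes in each pool (points, numbered as in the labels), with the mean and SD of 4 pools beside them and the background limit of 46.0 dotted. Cyp1a2 and Cyp4f18 were higher in every leptin pool, Cyp2d9, Cyp2f2, Cyp4b1 and Cyp2j9 lower in every leptin pool, and the pools overlapped slightly for Cyp2b10 and Cyp2c29.

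The Cyp2d genes clear many drugs and, in mice, hydroxylate steroids; 1 of the 5 tested genes passed. Cyp2d9, a steroid 16α-hydroxylase known in mouse liver as a male-predominant gene, had signals of 926, 2021, 2068 and 1399 in saline pools and 773, 594, 524 and 791 in leptin pools. The groups did not overlap, and saline 1 was nearest to the leptin pools. The log2 fold change was -1.20 ± 0.231 (SE; 95% interval -1.70 to -0.70; limma adjusted p = 0.0088), and it passed under each of the 21 alternatives, with adjusted p from 5.94e-05 to 0.0331. The other 4 were not called, with log2 fold changes between -0.18 (Cyp2d10) and 0.25 (Cyp2d40). For Cyp2d22 a second probe set passed (-0.49; limma adjusted p = 0.0461; signals of 1018 to 1270 with saline and 697 to 977 with leptin), while the brighter set that stood for the gene was at -0.12 (adjusted p = 0.667). Both probe sets of Cyp2d22 were below 0, the difference between them was not tested, and the second was picked out after its values were seen. With it, 4 of 55 tested P450 probe sets passed, or 7.27%, against 6.93% of all tested probe sets; 1 was higher and 3 were lower, beside 3.54% and 3.39%.

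Of the Cyp2b genes, targets of the receptor NR1I3, 1 of 3 tested genes passed. Cyp2b10, the usual marker of that receptor's activity, had signals of 490, 884, 776 and 643 with saline and 355, 386, 194 and 502 with leptin. The groups overlapped only through saline 1 and leptin 8. The log2 fold change was -0.98 ± 0.254 (SE; limma adjusted p = 0.0364), and -0.998 with the hepatocyte score (adjusted p = 0.00322). The call was lost under 8 of 21 alternatives (adjusted p up to 0.104), among them leaving out saline 2, saline 3, saline 4, leptin 5 or leptin 6. Its 2 dimmer probe sets were at -0.65 and -0.48 and did not pass (adjusted p = 0.0745 and 0.209). The set that stands for it is a type that can also bind transcripts of related genes. So are its set at -0.48 and the sets that stand for Cyp2c65, Cyp2c23 and Cyp4v3.

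Cyp2b13, a female-predominant liver gene, had signals of 899, 1962, 1696 and 1578 with saline and 986, 999, 589 and 1135 with leptin (log2 fold change -0.71 ± 0.238; limma adjusted p = 0.0956). Saline 1 lay among the leptin pools, and with the hepatocyte score the gene passed (-0.72 ± 0.122; adjusted p = 0.00318). Cyp2b9, close to it in sequence and also female-predominant, was at -0.041 (95% interval -0.50 to 0.42; adjusted p = 0.932). The receptor gene Nr1i3 was at 0.040 (adjusted p = 0.956).

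All 11 Cyp2c genes, which include the main epoxygenases of arachidonic acid, were tested and 0 were called, with log2 fold changes from -0.86 to 0.62. Cyp2c29 had signals of 5055, 7891, 7101 and 7731 with saline and 5339, 4421, 3022 and 5148 with leptin (-0.64 ± 0.181; limma adjusted p = 0.0508). With the score it was at -0.65 ± 0.115 (adjusted p = 0.00415), and it passed under 9 of the 21 alternatives. Cyp2c65, a gene of the gut lining, had 2191, 1799, 1495 and 2436 with saline and 953, 1319, 1746 and 1255 with leptin (-0.59; adjusted p = 0.0739, and 0.0207 with the score). Its highest leptin pool was leptin 7. That pool was the lowest leptin pool for 9 of the 13 hepatocyte markers, but the highest for the markers Alb and Ttr.

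Cyp2c23 had the largest positive value of the subfamily, with 347, 626, 617 and 448 in saline and 958, 720.1, 565 and 883 in leptin pools (0.62 ± 0.207; adjusted p = 0.0924, and 0.0102 with the score). Cyp2c50 (-0.30 ± 0.198; adjusted p = 0.398) passed under 2 of 21 alternatives, the actin ratio and the score, with -0.31 ± 0.0863 in the latter (adjusted p = 0.0418). Cyp2c70, which makes muricholic acid, a mouse bile acid, was at 0.42 (adjusted p = 0.225 and 0.06 with the score). Cyp2c37, Cyp2c38, Cyp2c54 and Cyp2c68 lay between -0.076 and 0.29, with adjusted p of at least 0.476, and Cyp2c39 at -0.25. Cyp2c55, at signals of 94.2 to 157 with saline and 50.0 to 112 with leptin, was at -0.86 ± 0.281 (adjusted p = 0.0865).

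Cyp2a12, Cyp2f2 and Cyp2s1 were tested and 0 passed. Cyp2f2, which activates naphthalene in airway and liver, had signals of 6878, 8463, 8915 and 7813 with saline and 6459, 6275, 5680 and 6671 with leptin. Its groups did not overlap and were separated by a small gap (log2 fold change -0.35 ± 0.101; limma adjusted p = 0.0557; -0.35 ± 0.0673 and adjusted p = 0.0062 with the score). Cyp2a12, a liver enzyme that hydroxylates steroids and bile acids, was at -0.40 ± 0.195 (adjusted p = 0.237), and at -0.41 ± 0.0866 with the score (0.011). Cyp2s1, an epithelial enzyme, had 1688 to 2414 with saline and 1899 to 2144 with leptin, a log2 fold change of 0.011 with a 95% interval of -0.25 to 0.27. Cyp2e1 was at 0.0020, with an interval of -0.27 to 0.28.

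The Cyp2j genes, fatty acid epoxygenases, had 3 of 5 members tested and 0 called. Cyp2j9 had signals of 196, 155, 211 and 194 with saline and 140.2, 139, 74.5 and 134 with leptin. Its groups did not overlap, and leptin 7 lay far below the other leptin pools (-0.63 ± 0.223; limma adjusted p = 0.11). Cyp2j5 and Cyp2j6 were at 0.15 and -0.21 (adjusted p = 0.678 and 0.428). A second, dimmer probe set of Cyp2j5 was at 0.54 (adjusted p = 0.0683). Neither Cyp2j11 nor Cyp2j13 was bright enough to be tested; every saline pool and 2 leptin pools of each fell below background.

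Cyp3a genes, the main drug-oxidising P450s of liver, did not pass in any of the 3 tested cases. Cyp3a11, the mouse gene most used as a marker of NR1I2 activity, had signals of 8068 to 11370 with saline and 10216 to 11280 with leptin (log2 fold change 0.076; 95% interval -0.17 to 0.32). Cyp3a13 had 2955 to 3932 and 2840 to 3364 (-0.051; -0.30 to 0.20). Cyp3a25 had 5156 to 7582 and 4279 to 6562 (-0.24; -0.57 to 0.087). Nr1i2 was at 0.0070 (adjusted p = 0.986).

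Cyp4 genes hydroxylate fatty acids and leukotrienes; 10 of 12 were tested and 0 passed. Cyp4a14, a target of the fatty acid receptor PPARA, had signals of 6245, 9582, 10860 and 9483 with saline and 11068, 9270.3, 7578 and 9712 with leptin (0.073; 95% interval -0.27 to 0.42). Cyp4a12a, a male-predominant arachidonic acid hydroxylase, had 913, 845, 820.4 and 1316 with saline and 440.1, 846, 507 and 683 with leptin, where leptin 6 lay within the saline range (-0.67 ± 0.205; limma adjusted p = 0.0715, and 0.0628 with the score). Cyp4a31 was at 0.32 (adjusted p = 0.428). Of the PPARA targets that are not P450s, 10 of 12 were on the array and tested, and 0 passed, with log2 fold changes from -0.41 (Angptl4) to 0.69 (Vnn1).

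Cyp4b1, a fatty acid hydroxylase of epithelia, had signals of 1852, 1597, 1519 and 1847 with saline and 1126, 1441, 1124 and 1422 with leptin. No pool of either treatment crossed into the other (-0.42 ± 0.125; limma adjusted p = 0.0637, and 0.0492 with the score). Of 12 tested markers of gallbladder epithelium, 4 fell (Krt7, -0.96; Krt8, -0.58; Slc4a4, -0.36; Krt18, -0.35), 1 rose (Tff2, 1.99) and 7 did not pass. Those 7 were Krt19 (-0.40), Cldn4 (-0.25), Cdh1 (-0.17), Cftr (-0.12), Sox17 (-0.069), Epcam (-0.0060) and Muc1 (0.028). The groups of Krt19 did not overlap (limma adjusted p = 0.0506). The signals of all 13 on the array summed to 48300 to 60112 with saline and 42122 to 45902 with leptin, and their part in the values of Cyp4b1 and Cyp2c65 was not tested. In all, 5 of the 47 tested P450 genes had groups that did not overlap (Cyp1a2, Cyp2d9, Cyp2f2, Cyp4b1 and Cyp2j9), against 17.0% of all tested genes. Leptin was higher in 1 and lower in 4 of them, beside 8.45% and 8.58% of all tested genes.

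Cyp4f18, which inactivates leukotriene B4 in neutrophils and other myeloid cells, was too dim on average to be tested. Its signals were 9.9, 6.5, 8.5 and 23.2 with saline and 202, 79.5, 129 and 63.4 with leptin. All 4 saline pools lay under the background limit of 46.0 and all 4 leptin pools above it. It was thus at least 2.14-fold higher with leptin, with the saline pools set at that limit. Leptin pools also had more of all probe sets above that limit, 68.4 to 71.0% against 63.3 to 66.9% in saline pools. When no probe set was left out for dimness Cyp4f18 passed (limma adjusted p = 0.00902). Its second probe set was under background in all 8 pools. Myeloid markers moved with it: 10 of 11 macrophage markers rose, with summed signals of 6081 to 7358 with saline and 12458 to 15241 with leptin. Of 6 neutrophil markers on the array 3 rose, with summed signals of 566 to 1044 and 3500.0 to 6003, while Ngp was at 0.0010 and Camp and Cxcr2 were under background in every pool. Their part in the Cyp4f18 signal was not tested. The other Cyp4 genes tested, Cyp4f13, Cyp4f14, Cyp4f15, Cyp4f16, Cyp4v3 and Cyp4x1, lay between -0.023 and 0.43 and did not pass (adjusted p of at least 0.35).

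Genes of steroid and vitamin metabolism were mostly dim. Of the 5 genes of steroid hormone synthesis, Cyp17a1, the steroid 17α-hydroxylase, was the only one tested. Its signals were 328, 638, 736 and 763 with saline and 1005, 963, 553 and 1047 with leptin. Leptin 7 lay within the saline range, and the log2 fold change was 0.56 ± 0.261 (limma adjusted p = 0.221), or 0.54 ± 0.151 with the score (0.042). Cyp11a1, Cyp11b1, Cyp11b2 and Cyp21a1, of the adrenal and gonads, each had at least 1 pool under background in their brightest probe set. A second probe set of Cyp21a1, also too dim to be tested, was above background in all 8 pools, with 58.5 to 64.2 with saline and 65.0 to 100.2 with leptin, groups that did not overlap. None of the vitamin D genes Cyp2r1, Cyp24a1 and Cyp27b1 was tested, and Cyp27b1 was under background in all 8 pools. Of the retinoic acid hydroxylases, Cyp26a1 was at -0.27 (adjusted p = 0.589). Cyp26b1 had 197, 290.0, 186 and 90.4 with saline and 214, 59.0, 120.1 and 33.1 with leptin, pools that overlapped widely (-0.97 ± 0.464; limma adjusted p = 0.228). The oxysterol enzyme Cyp39a1 was at 0.39 (adjusted p = 0.186), and Cyp20a1, of unknown substrate, at -0.13 (0.603). Of the 19 genes not tested, Cyp27b1 and Cyp3a16 lay under background in every pool, and Cyp2r1 and Cyp4f39 above it in every pool.

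Cyp51, Ptgis and Tbxas1 are P450 enzymes that the symbol rule does not take in. Cyp51, of cholesterol synthesis, had 1503, 1078, 1278 and 1708 with saline and 333, 381, 617 and 364 with leptin (-1.72 ± 0.195; limma adjusted p = 0.000211). Ptgis, prostacyclin synthase, fell by 0.45 on the log2 scale (adjusted p = 0.0387), from 1368 to 1766 with saline to 1073 to 1320 with leptin, a call lost under 11 of 21 alternatives (adjusted p up to 0.198). Tbxas1, thromboxane synthase, was at 0.35 (adjusted p = 0.368).

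Genes around the P450 enzymes were electron donors, heme genes, receptors and factors, and other genes of the same pathways or receptors. Of 89 on the array (99 listed, those 3 P450 enzymes included) 76 were tested, and 5 rose and 6 fell, or 14.5%, against 8.27% of all tested genes. The lists were chosen with earlier results of these data known, so this share is a count and not a test. Among 5 electron donors, Cyb5b, cytochrome b5 of the outer mitochondrial membrane, fell (-0.73 ± 0.112; limma adjusted p = 0.00216), from 2012 to 2601 with saline to 1316 to 1507 with leptin. The cytochrome b5 of the endoplasmic reticulum, Cyb5a, was at -0.067. Of 11 heme genes, Alad, the second enzyme of heme synthesis, fell (-0.57; adjusted p = 0.0173), and the rate-limiting Alas1 was at -0.44 (0.258). With the actin ratio as covariate, or without saline 1 and leptin 7, the call of Alad was lost (adjusted p up to 0.166). Of 18 tested receptors and factors that control P450 genes, 0 passed.

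Of 11 tested eicosanoid and epoxide enzymes, 4 rose and 1 fell. That was 45.5%, against 8.27% of all tested genes (4.29% higher and 3.98% lower). This list too was chosen with earlier results of these data known, so its share is no test. Those that rose include 3 of leukotriene synthesis: Alox5 (1.00 ± 0.212), its activator Alox5ap (1.05 ± 0.15) and Ltc4s, which makes leukotriene C4. Ltc4s was at least 2.76-fold higher, with 2 saline pools under background. The adjusted p of Alox5, Alox5ap and Ltc4s were 0.014, 0.00121 and 0.00847 in limma, and 0.106, 0.0617 and 0.0686 with the actin ratio as covariate, where the calls were lost. Lta4h, which makes the leukotriene B4 that Cyp4f18 inactivates, was at 0.064 (adjusted p = 0.781). Beside the macrophage and neutrophil markers given with Cyp4f18, 4 of 5 tested B and plasma cell markers rose. The 7 on the array had summed signals of 6087 to 6214 with saline and 19054 to 27384 with leptin. Most of the saline sums came from Xbp1 (5633.4 to 5835.5), the tested marker that did not pass. Of the 4 that rose, Ighm changed most, from 37.5 to 181.7 with saline to 9752.4 to 14058 with leptin. The part of these leukocyte markers in the values of Alox5, Alox5ap and Ltc4s was not tested. The call of Alox5 was also lost without saline 1 and leptin 7. The prostaglandin-degrading Hpgd rose by 0.55 (adjusted p = 0.0221, and 0.355 with the actin ratio). Epoxide hydrolase Ephx1, picked out after its values were seen and a partner of P450s in drug clearance, fell by 0.50 (0.0252), from 3343 to 4506 with saline to 2427 to 3087 with leptin. Of 8 retinoid genes Dhrs3, a retinal reductase, rose (0.47; adjusted p = 0.0412), a call lost under 12 of 21 alternatives (up to 0.277). Of 9 other steroid genes Hsd17b7, also of cholesterol synthesis, fell (-0.83; adjusted p = 0.00156).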

How the data were processed

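Array signals deposited by the authors are linear intensities, made with MAS5 according to the submitters' processing notes; its version is not stated there. Their 2% trimmed means were equalised here, which changed almost nothing, and log2(signal + 8.2) was used, 8.2 being the 10th percentile, so that differences of dim genes are understated. Leaving aside 64 controls, the brighter 22519 of 45101 probe sets were fitted in limma 3.58.1 (R 4.3.3; trended eBayes, two-sided, Benjamini-Hochberg, threshold 0.05). Each gene is its brightest probe set among the 34958 with 1 symbol, and 34754 symbols were brought to GRCm38.p6 by Entrez identifier. Signals under 46.0, the 95th percentile of 27 bacterial control probe sets, count as background. If at least 2 pools of the dimmer treatment fall below it, and fewer than 2 of the other, a fold is a lower bound.

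The labels number saline and leptin pools without a shared number. Precision is limited by the 4 arrays of each treatment. By rule, the genes named were those called, the 12 brightest, those whose treatments did not overlap, and up to 4 called genes per partner list; P450 genes described beyond these were picked after their values were seen. Members and lists were chosen with earlier results of these data known. The fit was tested on simulated data. Alternatives were other scaling, pseudocounts, filters, variance models, array weights, covariates and omitted pools.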

Additional observations from a re-analysis of the deposited data

Results flagged for a closer look

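In 5 of 36 groups of 4 pools of the 18 genes named by rule, 1 pool stood apart from the other 3 by more than Dixon's 95% critical ratio of gap to range. Chance flags about 1 in 20 groups, and the genes are not independent. Leptin 7 was the lowest leptin pool for Cyp2c37 (ratio 0.853; signal 1608 against 3147 to 3532), Cyp2d10 (0.841) and Cyp2j9 (0.927). Saline 1 was the lowest saline pool for Cyp3a11 (0.93; 8068 against 11099 to 11370). Saline 4 was the highest saline pool for Cyp3a13 (0.911; 3932 against 2955 to 3032). Leptin 7 and saline 1 also had the lowest hepatocyte scores of their treatments, and the part of that score in these gaps was not tested gene by gene.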

How the results depend on the processing

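No paired analysis was possible because saline and leptin pools share no replicate number. Cyp2d9 passed under all 21 alternatives and Cyp1a2 under 20, whereas the number of P450 genes called lower, 2 here, depended on the setting. It was 7 with median centring, 1 without a filter, 4 with a filter at the 75th percentile, 1 without the variance trend, 7 with array weights, 6 with the actin ratio and 1 to 6 leaving out a pool. The 3 probe sets called lower became 9, 1, 5, 1, 8 and 8 under these settings, and 1 to 9 leaving out a pool. The 1 gene called higher, also 1 probe set, became 2 without a filter, 0 with the actin ratio and 1 to 2 leaving out a pool. With the hepatocyte score, added after the data were seen, 3 genes and 3 probe sets were higher and 9 genes and 11 probe sets lower. Without saline 1 and leptin 7, also added then, 2 genes and 2 probe sets were higher and 8 genes and 9 probe sets lower. Over all probe sets, 1561 calls became 654 with the actin ratio and 884 to 1431 leaving out a pool. The 5 partner genes called higher became 8 with quantile scaling, 8 with cyclic loess, 3 without trend, 8 with array weights, 0 with the actin ratio, 12 with the score and 3 to 7 leaving out a pool. Small log2 fold changes, none of them called, changed sign. With the actin ratio Cyp2c37 was at -0.548, Cyp2e1 at -0.338, Cyp3a11 at -0.096, Cyp3a13 at 0.018 and Cyp4a14 at -0.378. With median centring Cyp2e1 was at -0.080, Cyp3a11 at -0.006 and Cyp4a14 at -0.009. With quantile scaling and cyclic loess Cyp2d26 was at 0.024 and 0.033, and Cyp3a13 at 0.085 and 0.082. With array weights Cyp2e1 was at -0.023 and Cyp3a13 at 0.003. Cyp2e1 was at -0.005 with the score and, without saline 1 and leptin 7, at -0.027, where Cyp3a11 was at -0.012. Leaving out a pool gave -0.245 to 0.056 for Cyp2d26, -0.111 to 0.086 for Cyp2e1, -0.043 to 0.122 for Cyp3a11, -0.091 to 0.047 for Cyp3a13 and -0.095 to 0.173 for Cyp4a14. The causes were not tested. The brightness filter left 19 P450 genes untested, of which 2 lay under background in all pools.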
